A study of Mus musculus with 16 samples.

Results

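Angiopoietin-like proteins and lipases, together with partner proteins that fold or hold lipases, were followed in mouse liver through 9 genes: the angiopoietin-like genes *Angptl4*, *Angptl6* and *Angptl8*, the lipase genes *Lpl*, *Lipc*, *Lipg* and *Pla1a*, and the partner genes *Gpihbp1* and *Lmf1*. They were chosen by symbol, with earlier results of these data known, and all 9 were found among the 17003 genes of the table. The study asked what hepatocyte-derived FGL1, a secreted protein related to fibrinogen, does in the liver, and this RNA sequencing compared male mice of 8 weeks, fed normal chow and not fasted, with and without *Fgl1* in hepatocytes. *Fgl1* LWT mice (8 libraries) carried floxed *Fgl1* alleles (*Fgl1* fl/fl) and no CRE, and *Fgl1* LKO mice (8 libraries) were *Fgl1* fl/fl littermates in which the albumin promoter drove CRE, so that the allele was deleted in hepatocytes and kept in the other cells of the liver. Each library came from 1 mouse, and the libraries are named here by genotype and replicate number, as LWT1 or LKO1. Expression was given in FPKM, in which fragments are counted relative to transcript length and library size, so levels of genes of different length can be set side by side, but the number of reads behind a value is unknown.

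Triglycerides in the blood are split by lipases of a shared family. Lipoprotein lipase acts on the capillary wall of muscle, heart and fat, hepatic lipase on the sinusoids of the liver, and endothelial lipase mainly on the phospholipids of high density lipoproteins. LMF1 lets these lipases fold in the endoplasmic reticulum, GPIHBP1 carries lipoprotein lipase across the capillary endothelium, and some angiopoietin-like proteins released by liver and fat inhibit such lipases according to feeding and fasting.

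*Fgl1*, the targeted gene, lay between 158 and 1331 FPKM in LWT mice and between 13.2 and 89.99 FPKM in LKO mice, without overlap (exact permutation test, two-sided, p = 0.000155). The liver label held: albumin (*Alb*) averaged 41750 FPKM, while *Prss2*, *Cpb1* and *Cpa1* of the exocrine pancreas and *Ckm* of muscle were listed at 0 in all 16 mice. Other genes of these marker lists were above 0 in every mouse, *Cela1* of the pancreas list at a mean of 15.3 FPKM and *Mylpf* of the muscle list at 0.68 FPKM. The mice differed widely in the acute-phase response, the switch of hepatocytes to inflammatory plasma proteins. Its serum amyloid gene *Saa1* ran from 63.8 to 16270 FPKM in LWT mice and from 68.4 to 7669 FPKM in LKO mice, with the highest values in LWT7, LWT5 and LKO5. The mice fell into 4 runs of mouse numbers, whose meaning the labels do not give, and the first run (36 to 38) held 3 LWT mice and 0 LKO mice.

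None of the 9 genes passed the threshold between the genotypes once the p-values were adjusted over all genes. In limma's test of LKO against LWT mice, 0 of 12770 genes had a Benjamini-Hochberg adjusted p under 0.05 (0.0%), and 895 had an unadjusted p under 0.05 (7.01%). The deleted gene *Fgl1* had the smallest p but was not called either (log2 difference -3.11, limma adjusted p = 0.0725). A gene that does not pass here is therefore not shown to be unchanged. Among the 9 genes, 1 had an unadjusted p under 0.05, *Pla1a*, which was lower in LKO mice. With the run of mouse numbers in the model 4 did so (*Pla1a*, *Lipg*, *Angptl4* and *Lmf1*), without the first run 3 (*Pla1a*, *Lipg* and *Angptl4*), with a replicate block 2 (*Pla1a* and *Lipg*) and without LKO4 2 (*Pla1a* and *Angptl4*), and none of these passed the adjusted threshold. The ranges of the genotypes overlapped for all 9 genes, whereas 0.0157% of all genes tested (2 genes) did not overlap. The fitted log2 fold change was below 0 for 6 genes and above 0 for 3, with a median of -0.08 beside 0.01 over all genes tested.

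**Figure D1:**
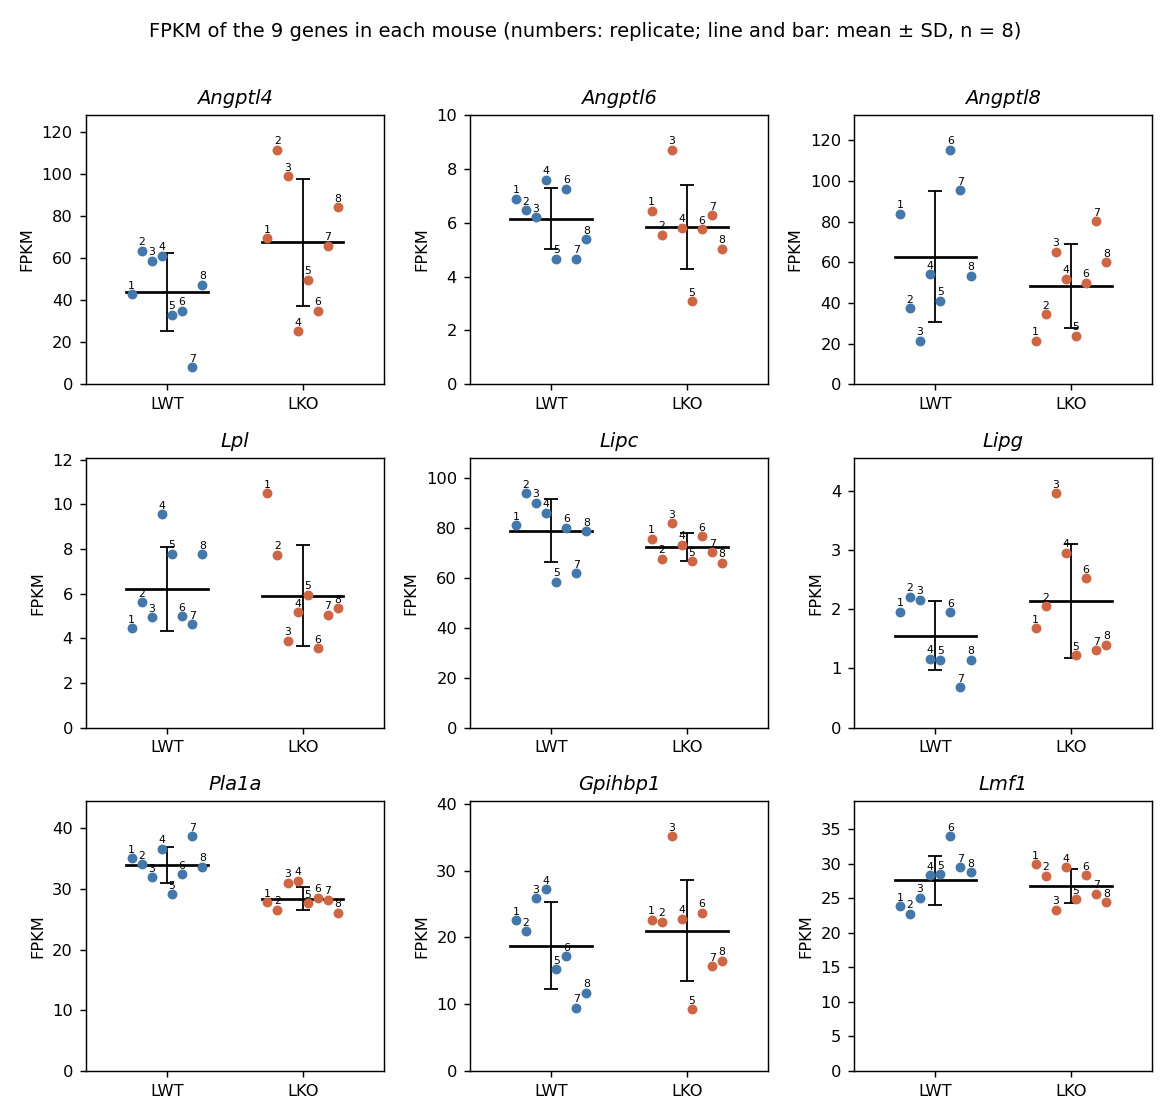
FPKM of the 9 genes (vertical axes, from 0, a separate scale for each gene) in 8 LWT mice (blue) and 8 LKO mice (orange); each point is 1 mouse with its replicate number, and the line and bar are the mean ± SD. The genotypes overlap in every panel, and the *Pla1a* points of LKO mice lie between 26.1 and 31.4 FPKM beside 29.2 to 38.7 FPKM in LWT mice.

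**Figure D2:**
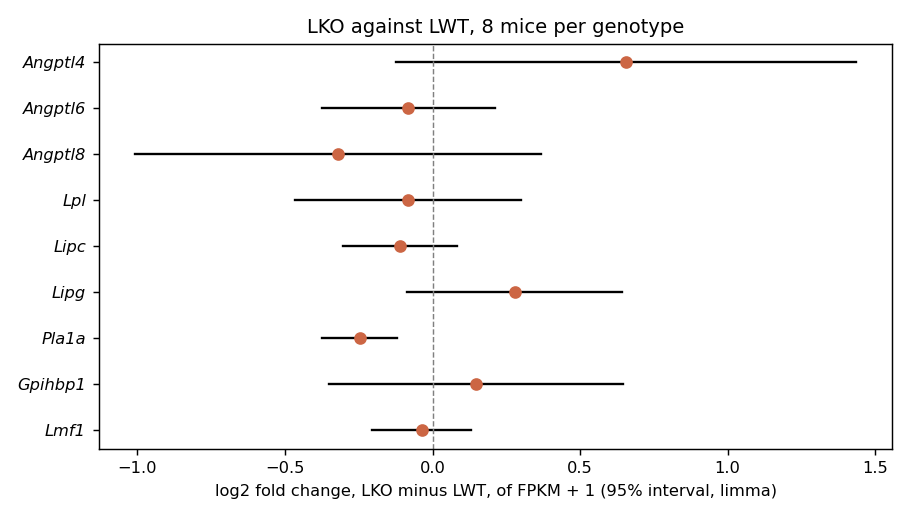
Log2 fold change of FPKM + 1, LKO minus LWT (horizontal axis), for each of the 9 genes, with 95% intervals from limma over 8 mice per genotype and a dashed line at 0. The interval of *Pla1a*, from -0.37 to -0.12, lies below 0, the others cross 0, and those of *Angptl4* and *Angptl8* are the widest of the 9.

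By mean FPKM over the 16 mice, *Lipc* was the highest of the group (75.4), followed by *Angptl4* (55.6), *Angptl8* (55.6), *Pla1a* (31.2), *Lmf1* (27.2), *Gpihbp1* (19.9), *Lpl* (6.06), *Angptl6* (5.99) and *Lipg* (1.84). Hepatic lipase was thus listed at a higher level than lipoprotein lipase, and *Lipc* exceeded *Angptl4* in 13 of 16 mice (exact sign-flip permutation test on log2 differences within mice, two-sided, adjusted p over the 8 neighbouring pairs = 0.00732). Neighbours whose difference did not pass the threshold were *Angptl4* and *Angptl8*, the first higher in 8 of 16 mice (exact permutation test, adjusted p = 0.94), and *Lpl* and *Angptl6*, the first higher in 7 of 16 mice (exact permutation test, adjusted p = 0.94). The other neighbours kept their order in 13 to 16 of 16 mice (exact permutation tests, adjusted p from 0.000122 to 0.00488).

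*Angptl4* (NCBI Gene 57875, chromosome 17 from 33992724 to 34000804, minus strand, GRCm39) encodes an inhibitor of lipoprotein lipase that fasting and fatty acids induce through PPAR-alpha and related receptors. It lay at 8.15, 45.0 and 63.5 FPKM (lowest, median and highest) in LWT mice and at 25.2, 67.7 and 111 FPKM in LKO mice. The lowest value was that of LWT7 and the highest that of LKO2, and 6 of 8 LKO mice lay above the LWT median, although the ranges overlapped. The means were 43.7 ± 18.5 FPKM (SD, n = 8) in LWT mice and 67.5 ± 30.1 FPKM (SD, n = 8) in LKO mice. On the log2(FPKM + 1) scale the difference was 0.66 (95% interval -0.12 to 1.44, which includes 0, limma adjusted p = 0.709, exact permutation p = 0.132). Without LWT7 the difference was 0.36, and without LKO4, the LKO mouse with the lowest value, it was 0.83. Without the first run it was 0.95, so the size of this difference rests on which mice enter.

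*Angptl4* was among the most variable genes of these livers: its spread within genotypes was larger than that of 99.2% of the genes tested, and its highest value was 13.7 times its lowest. Both measures include LWT7, at 8.15 FPKM, while every other mouse had 25.2 FPKM or more. The level of *Angptl4* was set beside a score of 13 PPAR-alpha target genes (the mean of their z-scored log2 values, such as *Cpt1a* of fatty acid oxidation), as deviations from the genotype means. Pearson's r was 0.59 and Spearman's rho 0.64 over 16 mice (permutation tests, two-sided, p = 0.0113 and 0.00896, adjusted over 9 relations 0.0339 and 0.0269). The relation rested on few mice: r was 0.37 without LWT7 and LWT5, 0.19 within runs of mouse numbers, 0.68 in LWT mice and 0.41 in LKO mice. It was not particular to *Angptl4*: with the same score r was 0.81 for *Lipc*, 0.76 for *Gpihbp1*, 0.67 for *Angptl6* and 0.67 for *Lipg* (permutation tests, adjusted p over 72 relations from 0.00461 to 0.0155). With the acute-phase score (10 genes, among them *Saa1*, *Hp* and *Orm1*), the r of *Angptl4* was -0.50 and its rho -0.45 (permutation p = 0.0718 and 0.0917, adjusted over the same 9 relations as above 0.161 and 0.206). This value differed between the genotypes, at -0.80 in LWT and 0.07 in LKO mice, a difference that was not tested, and it was -0.02 without LWT7 and LWT5. The genes whose deviations were most like those of *Angptl4* over the 16 mice were *Dync1li2* (r = 0.85), *Pck1* (0.84), *Apoa5* (0.84), *Hipk1* (0.83) and *Zfp369* (0.82). *Pck1* encodes the fasting-induced enzyme of gluconeogenesis and *Apoa5* an apolipoprotein that favours lipolysis by lipoprotein lipase. In LWT7, where *Angptl4* was lowest, *Pck1* was also at its lowest, 203 FPKM beside 560 to 1305 FPKM in the other LWT mice. Such likeness is common in these livers, since the closest partner of a gene had a median r of 0.89 over 10037 genes, so the order of partners is given as a description.

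*Angptl8* (NCBI Gene 624219) encodes a small protein that liver and fat make after feeding and under insulin, and that acts together with other family members on lipoprotein lipase. It lies on chromosome 9 from 21746786 to 21748643 on the plus strand (GRCm39), inside intron 14 of *Dock6*, which is on the opposite strand. No exon of the principal *Dock6* transcript overlaps it. Its promoter window in RefSeq, from 250 bases before the start to 50 after it, matches GRCm39 exactly, at chr9:21746556-21746855 on the plus strand, and is shown because this gene is both nested and among the most variable of the group. Capitals mark a match to GTTAAN, a half-site of the hepatocyte factor HNF1:

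Angptl8: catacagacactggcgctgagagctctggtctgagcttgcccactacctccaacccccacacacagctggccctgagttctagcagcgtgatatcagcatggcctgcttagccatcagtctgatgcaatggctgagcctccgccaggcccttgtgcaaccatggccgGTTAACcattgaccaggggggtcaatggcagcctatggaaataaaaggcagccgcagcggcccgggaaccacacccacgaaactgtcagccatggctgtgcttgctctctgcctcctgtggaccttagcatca

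The match GTTAAC starts 83 bases before the start site and reads the same on both strands. Of 32851 promoter windows of this length in the table, 24.1% hold GTTAAN on either strand, so the match is a description of the sequence. The nuclear receptor half-site AGGTCA (in 16.3% of windows), the STAT motif TTCNNNGAA (8.3%) and TATAAA (13.6%) were not found in this window on either strand.

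*Angptl8* lay at 21.4, 53.8 and 115 FPKM (lowest, median and highest) in LWT mice and at 21.4, 51.0 and 80.1 FPKM in LKO mice. The highest were LWT6 and LWT7 and the lowest LKO1 and LWT3, and the ranges overlapped, although 3 LWT mice (LWT1, LWT6 and LWT7) were above every LKO mouse. The means were 62.8 ± 32.2 FPKM (SD, n = 8) and 48.4 ± 20.5 FPKM (SD, n = 8), a log2 difference of -0.32 (95% interval -1.01 to 0.37, limma adjusted p = 0.819, exact permutation p = 0.389). Its spread within genotypes was larger than that of 98.7% of the genes tested.

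No measure set beside *Angptl8* had a correlation past the threshold. With a score of 12 genes of fatty acid synthesis (*Fasn*, *Scd1*, *Thrsp* and others, which insulin and carbohydrate feeding induce), r was 0.09 and rho -0.03 (permutation p = 0.736 and 0.927, adjusted 0.736 and 0.927). Against *Angptl4*, which fasting rather than feeding induces, r was -0.33 and rho -0.31 (permutation p = 0.237 and 0.262, adjusted 0.384 and 0.392), at -0.56 in LWT and 0.00 in LKO mice. *Dock6*, the gene around it, lay between 2.21 and 5.74 FPKM and had an r of -0.06 and a rho of -0.07 with *Angptl8* (permutation p = 0.825 and 0.812, adjusted over 6 relations 0.825 and 0.812). The genes with the most similar deviations were *Polr2e* (r = 0.85), *Trappc1* (0.82), *Slc6a8* (0.82), *C77080* (0.81) and *Bbs10* (0.81), of which none is in a list used here.

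*Angptl6* (NCBI Gene 70726) encodes an angiopoietin-like protein made mainly by the liver and known for raising energy expenditure and for acting on blood vessels. It lies on chromosome 9 from 20785103 to 20791064 on the minus strand (GRCm39), 956 kb from *Angptl8*, and its end overlaps that of *Shfl* on the opposite strand. It lay at 4.66, 6.34 and 7.60 FPKM (lowest, median and highest) in LWT mice and at 3.09, 5.79 and 8.71 FPKM in LKO mice. Both the highest (LKO3) and the lowest value (LKO5) were in LKO mice. The means were 6.14 ± 1.13 and 5.83 ± 1.56 FPKM (SD, n = 8 each), a log2 difference of -0.08 (95% interval -0.38 to 0.21, limma adjusted p = 0.901, exact permutation p = 0.605), whose sign turned without LKO5 (0.02).

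Between mice, *Angptl6* was low where acute-phase RNA was high. With the score of the acute-phase genes, r was -0.78 and rho -0.78 (permutation p = 2e-05 and 0.00087, adjusted over 72 relations of 9 genes with 8 scores 0.00072 and 0.00746). It was -0.76 without LWT7 and LWT5, -0.84 within runs, -0.85 in LWT mice (rho = -0.55) and -0.83 in LKO mice, where neither genotype alone passed the adjusted threshold (exact permutation tests, adjusted p = 0.0806 and 0.0649). The 3 mice with the highest *Saa1* had the 3 lowest *Angptl6* values, 4.66 FPKM in LWT5, 4.67 in LWT7 and 3.09 in LKO5. With the stellate score (7 genes of vitamin A-storing and collagen-forming cells, such as *Dcn* and *Colec11*), r was 0.79 and rho 0.84 (permutation p = 0.0008 and 0.00025, adjusted 0.0064 and 0.00662), and with the endothelial score (12 genes) r was 0.84 and rho 0.71 (permutation p = 0.00062 and 0.00494, adjusted 0.00576 and 0.0209). Without LKO5 and LKO3 these were 0.58 and 0.63. With the hepatocyte score (6 genes) r was 0.77 and rho 0.74 (permutation p = 0.00032 and 0.00264, adjusted 0.00461 and 0.0146). This r was 0.97 in LKO mice and 0.66 in LWT mice (exact permutation tests, adjusted p = 0.00179 and 0.234). The genes closest to *Angptl6* were *Septin4* (r = 0.91), *Slc44a2* (0.89), *Ecm1* (0.89), *Colec11* (0.89) and *Pear1* (0.89), and 5 of its 50 closest were in the endothelial list.

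*Lipc* (NCBI Gene 15450, chromosome 9 from 70705410 to 70859508, minus strand, GRCm39) encodes hepatic lipase, which hepatocytes secrete onto the sinusoids, where it trims remnants and high density lipoproteins. It lay at 58.3, 80.5 and 93.8 FPKM (lowest, median and highest) in LWT mice and at 66.0, 71.7 and 81.8 FPKM in LKO mice. The LKO range lay inside the LWT range, whose low end was set by LWT5 and LWT7 and whose high end by LWT2 and LWT3, and 7 of 8 LKO mice were below the LWT median. The means were 78.7 ± 12.6 and 72.2 ± 5.61 FPKM (SD, n = 8 each), a log2 difference of -0.11 (95% interval -0.30 to 0.08, limma adjusted p = 0.785, exact permutation p = 0.264). The 3 LWT mice of the first run averaged 88.2 FPKM, and without them the difference was 0.00 (-0.002 before rounding).

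*Lipc* was low where the acute-phase score was high, at an r of -0.88 and a rho of -0.79 (permutation p = 0.0003 and 0.00081, adjusted over 72 relations 0.00461 and 0.00746). It was -0.66 without LWT7 and LWT5, -0.80 within runs, -0.96 in LWT mice and -0.68 in LKO mice, neither of which passed alone (exact permutation tests, adjusted p = 0.0643 and 0.275). FPKM are relative to the whole library, of which the 10 acute-phase genes took between 3783 and 54520 FPKM. With each library scaled by the median ratio of all genes instead, r was -0.81. *Lipc* and *Angptl6* also varied together (r = 0.67, rho = 0.70, permutation p = 0.00062 and 0.00477, adjusted over 36 pairs of the 9 genes 0.00804 and 0.0343). Because these 2 genes fell together where acute-phase RNA was high, their RefSeq promoter windows are shown, each matched exactly on chromosome 9 of GRCm39 (minus strand), *Angptl6* at chr9:20790957-20791256 and *Lipc* at chr9:70859454-70859753. They were searched for the same 4 motifs as *Angptl8*, among them the STAT motif, which acute-phase signals use, and would show a match in capitals:

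Angptl6: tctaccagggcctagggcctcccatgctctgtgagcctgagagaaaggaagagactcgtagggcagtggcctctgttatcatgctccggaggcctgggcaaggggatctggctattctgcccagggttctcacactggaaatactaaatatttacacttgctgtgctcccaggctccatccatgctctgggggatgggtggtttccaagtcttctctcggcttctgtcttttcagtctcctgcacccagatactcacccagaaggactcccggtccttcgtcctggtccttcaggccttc

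Lipc: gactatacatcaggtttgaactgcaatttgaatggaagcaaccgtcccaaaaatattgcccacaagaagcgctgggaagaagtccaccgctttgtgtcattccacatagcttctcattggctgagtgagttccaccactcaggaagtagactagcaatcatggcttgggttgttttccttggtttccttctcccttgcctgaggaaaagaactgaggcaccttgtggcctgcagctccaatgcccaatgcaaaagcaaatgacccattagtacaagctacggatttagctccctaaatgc

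Neither window held any of the 4 motifs on either strand, and so neither has capitals. RefSeq gives a further *Lipc* start 17.4 kb downstream, whose window held AGGTCA on each strand, 88 and 76 bases before that start. The window of *Lmf1*, the only other of the 9 genes matched in the table (4 of 9 matched in all), held none of the 4. These counts say only which letters the windows hold. The genes most like *Lipc* were *Btbd7* (r = 0.93), *Fam117b* (0.91), *Sgms2* (0.90), *Lcp1* (0.90) and *Lias* (0.89).

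*Pla1a* (NCBI Gene 85031, chromosome 16 from 38212369 to 38253537, minus strand, GRCm39) encodes a secreted phospholipase of the lipase family that releases lysophosphatidylserine, and was the gene of the group with the clearest genotype difference. It lay at 29.2, 33.9 and 38.7 FPKM (lowest, median and highest) in LWT mice and at 26.1, 28.0 and 31.4 FPKM in LKO mice. All 8 LKO mice were below the LWT median, as was the case for 1.99% of all genes tested. The ranges overlapped through LWT5, the lowest LWT mouse, and 6 LKO mice were below it, while 7 LWT mice were above LKO4, the highest LKO mouse. The means were 34.0 ± 2.92 and 28.4 ± 1.90 FPKM (SD, n = 8 each), a log2 difference of -0.25 with a standard error of 0.06 (95% interval -0.37 to -0.12), or 0.843-fold. The unadjusted limma p was 0.000709, the 14th smallest of 12770, with an adjusted p of 0.612, and the exact permutation p was 0.000777. Its difference in these libraries was known when the 9 genes were chosen, so its direction here is not independent evidence.

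The difference in *Pla1a* was small, and its size varied between runs of mouse numbers. Its spread within genotypes was larger than that of only 12.0% of genes, and its highest value was 1.48 times its lowest. Within runs of mouse numbers, LKO mice averaged 28.5 FPKM beside 36.6 FPKM in LWT4, the LWT mouse of the second run. In the third run the means were 29.2 FPKM in LKO and 30.8 FPKM in LWT mice, and in the fourth 27.2 and 36.2 FPKM. Leaving out each mouse in turn gave log2 differences from -0.28 to -0.22, and the unadjusted p was under 0.05 in 27 of 27 alternative fits, with adjusted p from 0.245 to 0.953. Set beside the acute-phase genes, r was -0.31 and rho -0.35 (permutation p = 0.29 and 0.204, adjusted 0.384 and 0.367). This r was -0.79 in LKO and -0.07 in LWT mice (difference not tested), and 0.07 after median-ratio scaling. With the fatty acid synthesis score r was 0.63 (permutation p = 0.00887, adjusted over 72 relations 0.0336) but rho 0.43 (permutation p = 0.103, adjusted 0.266), and r was 0.41 without LKO4 and LKO3. Its closest genes were *Fuca2* (r = 0.90), *Tec* (0.89), *Pde4c* (0.87), *Prdx3* (0.86) and *Prss8* (0.86).

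*Lpl* (NCBI Gene 16956, chromosome 8 from 69284603 to 69360100, plus strand, GRCm39, 27.6 Mb from *Fgl1*) encodes lipoprotein lipase, of which the adult liver makes little, partly in macrophages. It lay at 4.45, 5.30 and 9.55 FPKM (lowest, median and highest) in LWT mice and at 3.56, 5.26 and 10.5 FPKM in LKO mice. The highest mice were LKO1 and LWT4, and the genotypes overlapped almost fully. The means were 6.22 ± 1.90 and 5.90 ± 2.26 FPKM (SD, n = 8 each), a log2 difference of -0.08 (95% interval -0.47 to 0.30, limma adjusted p = 0.926, exact permutation p = 0.68). The sign turned with array weights (0.07) and the value was 0.00 without LWT4. Its spread within genotypes was larger than that of 93.8% of genes, and its correlation with neither score set beside it passed the threshold. With the macrophage score (12 genes, such as *Clec4f* and *C1qc*) r was 0.29 and rho 0.20 (permutation p = 0.298 and 0.476, adjusted 0.384 and 0.611), and -0.17 within runs. With the adipocyte score r was 0.12 and rho 0.17 (permutation p = 0.695 and 0.555, adjusted 0.736 and 0.625). Of the 8 adipocyte genes, 6 were in the table and 4 were tested, *Plin1* was listed at 0 in all 16 mice and *Adipoq* in 14, and the sum ran from 5.17 to 17.5 FPKM in LWT mice and from 5.97 to 53.5 FPKM in LKO mice. That sum was mainly *Fabp4*, which averaged 12.6 FPKM with a highest value of 45.05 FPKM, while each of the others averaged at most 1.06 FPKM. Neither the sum nor the score can therefore be read as a level of fat cells. The genes most like *Lpl* were *C9orf72* (r = 0.83), *Hikeshi* (0.78), *Ero1b* (0.77), *Cxcl10* (0.77) and *Keg1* (0.76).

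*Lipg* (NCBI Gene 16891, chromosome 18 from 75072393 to 75094339, minus strand, GRCm39) encodes endothelial lipase and was the lowest of the 9 genes. It lay at 0.68, 1.56 and 2.21 FPKM (lowest, median and highest) in LWT mice and at 1.22, 1.87 and 3.96 FPKM in LKO mice. LKO3, LKO4 and LKO6 were above every LWT mouse and LWT7 was the lowest, but the other mice overlapped. The means were 1.55 ± 0.58 and 2.14 ± 0.96 FPKM (SD, n = 8 each), a log2 difference of 0.28 (95% interval -0.09 to 0.64, limma adjusted p = 0.722, exact permutation p = 0.169). On the log2(FPKM + 1) scale the change of so low a gene is understated. Without the first run the difference was 0.47 (limma adjusted p = 0.774).

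The level of *Lipg* followed the endothelial score, at an r of 0.72 and a rho of 0.76 (permutation p = 0.00262 and 0.00107, adjusted over 9 relations 0.0118 and 0.00482). It was 0.91 within runs, 0.57 without LKO5 and LKO3, 0.60 in LWT mice and 0.80 in LKO mice, where neither genotype alone passed the adjusted threshold (exact permutation tests, adjusted p = 0.225 and 0.0564). Set beside the acute-phase genes, r was -0.70 and rho -0.80 (permutation p = 0.00238 and 0.00032, adjusted over 72 relations 0.0122 and 0.00662). The closest genes were *Eci1* (r = 0.92), an enzyme of fatty acid oxidation in mitochondria, *Fgfrl1* (0.90), *Bmp6* (0.89), a factor that liver endothelium secretes, *Pccb* (0.89), an enzyme of propionate breakdown, and *Ptprs* (0.88). None of the 50 genes closest to *Lipg* was in the endothelial list, beside 9 for *Gpihbp1*.

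*Gpihbp1* (NCBI Gene 68453, chromosome 15 from 75468474 to 75471331, plus strand, GRCm39) encodes the protein that binds lipoprotein lipase on capillary endothelium. It lay at 9.44, 19.1 and 27.2 FPKM (lowest, median and highest) in LWT mice and at 9.21, 22.5 and 35.1 FPKM in LKO mice. The lowest values were those of LKO5 and LWT7 and the highest that of LKO3, with overlap throughout. The means were 18.8 ± 6.47 and 21.0 ± 7.57 FPKM (SD, n = 8 each), a log2 difference of 0.15 (95% interval -0.35 to 0.65, limma adjusted p = 0.893, exact permutation p = 0.579).

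Over the 16 mice together, *Gpihbp1* with the endothelial score had the largest r of the relations of the 9 genes with a score, with each other or with *Fgl1*. With the endothelial score r was 0.95 and rho 0.92 (permutation p = 1e-05 for each, the smallest that 100000 resamples can give, adjusted over 9 relations 9e-05). It was 0.92 without LKO5 and LKO3, 0.94 within runs, 0.95 in LWT mice and 0.96 in LKO mice. The 12 endothelial genes, among them *Clec4g* and *Egfl7*, were all above 0 in every mouse, and their sum ran from 52.8 to 118 FPKM in LWT mice and from 36.6 to 143 FPKM in LKO mice, without a genotype difference past the adjusted threshold in any of the 12. In bulk liver, fewer endothelial cells and less RNA per endothelial cell cannot be told apart. The closest genes were *Oit3* (r = 0.96), *Ntn4* (0.95), *Mmrn2* (0.94), *Cyp4b1* (0.94) and *Clec14a* (0.93), of which *Oit3*, *Mmrn2* and *Clec14a* are known from endothelium. Of the 11 endothelial genes with at least 1 FPKM, 9 were among the 50 genes closest to *Gpihbp1*.

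*Lmf1* (NCBI Gene 76483, chromosome 17 from 25798048 to 25888183, plus strand, GRCm39) encodes the membrane protein of the endoplasmic reticulum that lipases need to mature. It lay at 22.8, 28.4 and 34.0 FPKM (lowest, median and highest) in LWT mice and at 23.4, 27.0 and 29.9 FPKM in LKO mice. LWT6 was the highest, the LWT mice of the first run were among the lowest, and the genotypes overlapped. The means were 27.6 ± 3.60 and 26.8 ± 2.52 FPKM (SD, n = 8 each), a log2 difference of -0.04 (95% interval -0.20 to 0.13, limma adjusted p = 0.924, exact permutation p = 0.649). The sign turned with array weights and without LWT6 (0.01 each), and with the run as a term the value was -0.16 (limma adjusted p = 0.615). Its highest value was 1.49 times its lowest, and none of its correlations with the 8 scores passed the adjusted threshold. *Slc39a11* (r = 0.88), *Smim20* (0.84), *Chid1* (0.83), *Rarres1* (0.80) and *Gpr180* (0.80) were the genes most like it.

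**Figure D3:**
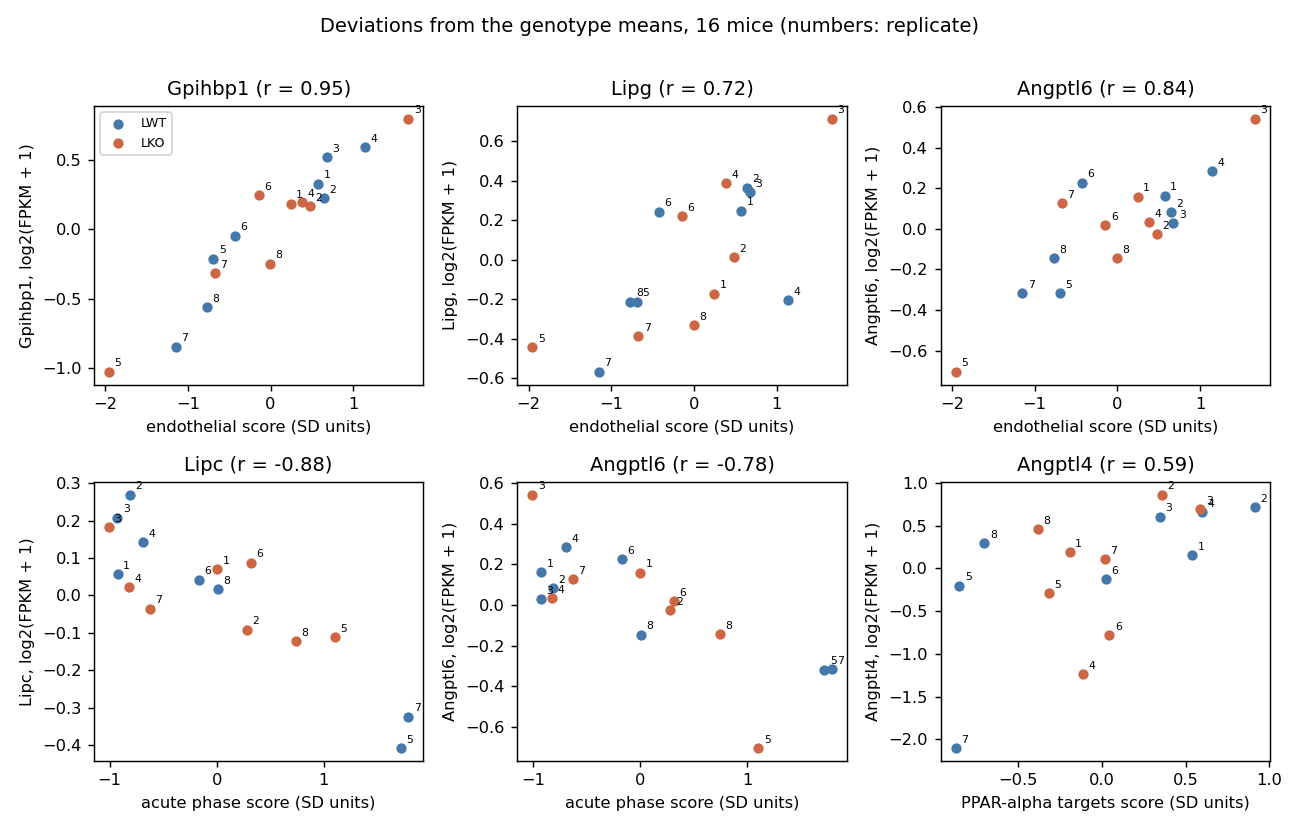
Each panel plots 1 gene (vertical axis, log2 of FPKM + 1) against a list score (horizontal axis, mean of z-scored log2 values) as deviations from the genotype means, for 8 LWT (blue) and 8 LKO mice (orange) with their replicate numbers. *Gpihbp1* follows the endothelial score closely (r = 0.95), *Lipc* and *Angptl6* fall with the acute-phase score (r = -0.88 and -0.78), and the relation of *Angptl4* with PPAR-alpha targets (r = 0.59) was 0.37 without LWT7 and LWT5.

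The genes differed in how far they followed the scores between mice, without a clean split. *Angptl6*, *Lipc*, *Lipg* and *Gpihbp1* were low where acute-phase RNA was high, and 5 of the 6 pairs among them varied together, while *Angptl8*, *Lpl* and *Lmf1* passed the adjusted threshold with none of the 8 scores. *Angptl4* and *Pla1a* had the signs of the first 4 genes for the acute-phase, endothelial, hepatocyte and PPAR-alpha scores, at weaker r. With the endothelial score, *Angptl4* had an r of 0.53 and a rho of 0.69 (permutation p = 0.0328 and 0.00428, adjusted over 72 relations 0.11 and 0.0193). Of the 36 pairs among the 9 genes, 5 had an adjusted permutation p under 0.05, and all 5 lay within the first 4 genes, whose remaining pair, *Lipg* and *Angptl6*, did not pass (r = 0.66, rho = 0.60, permutation p = 0.00874 and 0.0179, adjusted 0.0524 and 0.107). Of those that passed, the closest pair was *Gpihbp1* and *Angptl6* (r = 0.84, rho = 0.72, permutation p = 0.00035 and 0.00391, adjusted 0.00804 and 0.0343). Genes that follow the same score tend to vary together, so these pairs add little to the relation with the acute phase. The share of all genes, or of all pairs of genes, that would pass in this way is not given here. The counts thus do not set the 4 genes apart from other genes of these livers. The same 4 genes were low where *Fgl1* was high within the genotypes: r was -0.81 for *Lipc*, -0.79 for *Lipg*, -0.76 for *Gpihbp1* and -0.73 for *Angptl6* (permutation p from 0.00053 to 0.00082, adjusted over 9 relations 0.00185 for each; rho from -0.82 to -0.74, adjusted p from 0.00207 to 0.00466). Without LWT7 and LWT5 r ran from -0.74 to -0.64, and within runs from -0.81 to -0.63. In LWT mice alone it ran from -0.94 to -0.81 (exact permutation tests, adjusted p from 0.0189 to 0.0334). In LKO mice, where the *Fgl1* RNA left after the deletion lay between 13.2 and 89.99 FPKM, r ran from -0.77 to -0.64 and passed for none of the 4 genes (exact permutation tests, adjusted p from 0.109 to 0.175). *Fgl1* itself rose with the acute-phase score within genotypes (r = 0.95, rho = 0.98, permutation p = 1e-05 for each, adjusted over 6 relations 3e-05 and 6e-05), so the 2 measures carry nearly the same order of mice. The endothelial and hepatocyte scores fell with the acute-phase score as well (r = -0.72 and -0.89, rho = -0.80 and -0.87, permutation p = 0.00067 and 1e-05 for r, adjusted 0.00134 and 3e-05, and 0.0005 and 2e-05 for rho, adjusted 0.001 and 6e-05), and the part of each in the levels of the 4 genes was not tested. After median-ratio scaling, the acute-phase r was -0.81 for *Lipc*, -0.76 for *Angptl6*, -0.73 for *Gpihbp1* and -0.68 for *Lipg*.

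**Figure D4:**
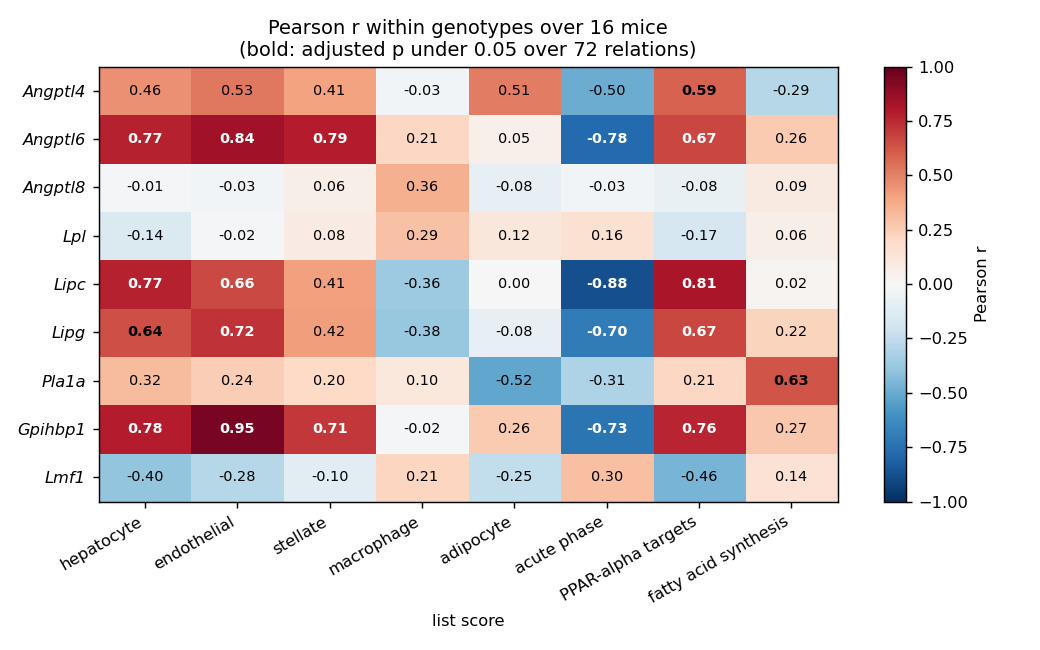
Pearson's r, over 16 mice and after removal of the genotype means, of each of the 9 genes (rows) with 8 list scores (columns), from blue (-1) to red (1); bold values have an adjusted permutation p under 0.05 over the 72 relations. *Angptl6*, *Lipc*, *Lipg* and *Gpihbp1* share negative values for the acute phase and positive values for the endothelial, hepatocyte and PPAR-alpha scores, and the rows of *Angptl8*, *Lpl* and *Lmf1* hold no bold value. *Angptl4* and *Pla1a* have the same signs for these scores at weaker values.

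Around these 9 genes, no gene of the other lists of lipid handling passed the adjusted threshold, and 3 genes of the lists of lipases and PPAR-alpha targets had an unadjusted limma p under 0.05, all 3 higher in LKO mice. They were 1 of 13 intracellular lipases and partners, 1 of 13 PPAR-alpha targets and 1 of 8 genes of lipase folding and cleavage. Over all genes tested the share was 7.01%, so the 3 genes do not mark out these lists. Of the 895 such genes among all genes tested, 593 were higher and 302 lower in LKO mice. Among 13 intracellular lipases and their partners, 1 had an unadjusted p under 0.05: *G0s2*, which encodes the inhibitor of adipose triglyceride lipase, at 37.4 FPKM in LWT and 69.2 FPKM in LKO mice (log2 difference 0.83, 95% interval 0.17 to 1.48, limma adjusted p = 0.696, exact permutation p = 0.0357). *Pnpla2*, the lipase that it inhibits, was at 22.9 and 25.95 FPKM (log2 difference 0.16, limma adjusted p = 0.713), and the highest of the list, *Ces3a*, at 1415 and 1351 FPKM. Of 13 PPAR-alpha targets, all had a log2 difference above 0 (median 0.11, beside 0.01 over all genes tested, of which 55.8% were above 0), although by mean FPKM 4 of the 13 were lower in LKO mice. Genes of 1 pathway are not independent observations, and neither their score nor their log2 sum passed the threshold between the genotypes (exact permutation tests, p = 0.173 and 0.548). Of the 13, 1 had an unadjusted p under 0.05: *Plin2*, the coat protein of lipid droplets, at 158 and 216 FPKM (log2 difference 0.43, limma adjusted p = 0.696, exact permutation p = 0.0294). Among 8 genes of lipase folding and cleavage, *Pcsk6*, a convertase that cleaves lipases, was at 24.3 and 27.2 FPKM (log2 difference 0.16, limma adjusted p = 0.696, exact permutation p = 0.0446), while *Calr* was at 539 and 605 FPKM.

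In the remaining lists of lipoprotein handling, 0 of 5 apolipoprotein cofactors, 0 of 10 genes of remnant and fatty acid uptake, 0 of 12 genes of fatty acid synthesis and 0 of 6 tested angiopoietin-like and angiopoietin genes had an unadjusted limma p under 0.05. Of the other lipase-family genes, *Lcat*, which esterifies cholesterol in plasma, was at 360 and 355 FPKM and *Pla2g15* at 5.37 and 5.15 FPKM, while *Pnlip* and *Cel* of the pancreas were listed at 0 in all 16 mice. Among cell type markers, 2 of 12 macrophage genes had an unadjusted limma p under 0.05 (7.01% over all genes tested), *Adgre1* (3.66 and 5.16 FPKM, exact permutation p = 0.0455) and *Vsig4* (11.9 and 15.8 FPKM, exact permutation p = 0.0514). All 12 macrophage genes had a log2 difference above 0, beside 55.8% of all genes tested, but genes of 1 cell type are not independent observations. Their sum ran from 167 to 329 FPKM in LWT mice and from 226 to 419 FPKM in LKO mice (exact permutation test on the log2 sum, p = 0.166). All 5 biliary genes and all 4 tested adipocyte genes were above 0 as well. Of the 4 adipocyte genes tested, 1 had an unadjusted limma p under 0.05, *Plin4* (0.87 and 1.24 FPKM, exact permutation p = 0.0612). Of the other marker lists, 0 of 6 hepatocyte, 0 of 12 endothelial, 0 of 7 stellate, 0 of 5 biliary, 0 of 4 tested neutrophil and 0 of 10 acute-phase genes had an unadjusted limma p under 0.05. The part of these cells in the levels of *Lpl* and the other genes was not tested.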

How the data were processed

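Liver RNA of 16 mice (8 per genotype, grouped by the genotype in their labels) was sequenced as stranded poly(A) libraries. The methods give 7 mice per genotype and a figure legend 8, and all 16 were used. The authors filtered the reads, aligned them to mm39, and deposited FPKM values rounded to 2 decimals for 17003 genes. HISAT and Bowtie2 are named in the submitters' processing notes. Their versions, the counting step, its use of strand and the annotation are not given in the sources used here, so reads of *Angptl8* and *Dock6*, or of other genes that overlap on opposite strands, might not be told apart. Depth is unknown, and summed FPKM ran from 673153 to 786188 per mouse.

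FPKM are not counts, so log2(FPKM + 1) was compared with limma 3.58.1 in R 4.3.3 (two-sided, empirical Bayes with a trend) for the 12770 genes averaging 0.1 FPKM or more. Benjamini-Hochberg adjustment ran over all of them. The fold change of low genes is understated on this scale. Exact permutation tests ran over 12870 splits of the mice, of which the smallest two-sided p is 0.000155, and correlations used 100000 resamples within genotypes (Python 3.11.15, numpy 2.4.6, scipy 1.17.1). Scores are means of z-scored log2 values over the tested genes of a list. The limma and exact steps were tested on simulated data. Mice of the same replicate number were not treated as pairs (the deviations of same-numbered mice correlated above 0.1 in 3 of 8 pairs).

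The 9 genes and all lists were chosen with earlier results of these data known. Of other lists, genes named are those with an unadjusted p under 0.05 (at most 5) and examples from the 2 highest by mean FPKM, and the 5 closest genes of each of the 9. *Pnpla2*, *Cpt1a*, *Fasn*, *Orm1*, *Clec4f*, *Dock6* and markers listed at 0 are named outside this rule, chosen after their values were seen. Positions are from GENCODE vM39 on GRCm39, and promoter windows from RefSeq (GRCm38.p6), matched exactly to GRCm39. Alternatives were pseudocounts of 0.1 and 0.01, other filters, scalings and weights, a replicate block, runs of mouse numbers and leaving out mice. The relations over 72, 36, 9 (*Fgl1*) and 6 pairs, median-ratio scaling of correlations and 2 alternatives for the order of levels were added after seeing the data.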

Additional observations from a re-analysis of the deposited data

Results flagged for a closer look

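*Angptl4* in LWT7, at 8.15 FPKM, lay far below the other LWT mice, the nearest of which had 33.1 FPKM. On the log2(FPKM + 1) scale the gap took 0.674 of the range of the 8 mice, beside a critical value of 0.526. Of 18 groups examined (9 genes in each genotype), 1 stood out in this way, and chance alone would give about 0.9.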

How the results depend on the processing

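Each result was recomputed under its alternatives, 331 in all, and 308 kept their direction and their side of the threshold. Instead of 0 genes, 1 gene (*Fgl1*) passed the adjusted threshold with equal sums in each mouse, with the mouse-number run in the model, without the first run and with a replicate block, which did not pair the mice by the check made and changed no adjusted call among the 9 genes. Leaving out each mouse in turn, 0 genes passed each time, and the log2 differences ran from 0.36 to 0.83 for *Angptl4*, -0.16 to 0.018 for *Angptl6*, -0.51 to -0.17 for *Angptl8*, -0.20 to 0.00 (0.000546) for *Lpl*, -0.17 to -0.07 for *Lipc*, 0.18 to 0.34 for *Lipg*, -0.28 to -0.22 for *Pla1a*, 0.03 to 0.30 for *Gpihbp1* and -0.074 to 0.0059 for *Lmf1*. With array weights, *Lpl* (0.075) and *Lmf1* (0.0061) turned sign. The correlations of *Angptl4* with PPAR-alpha targets (0.68 in LWT, 0.41 in LKO, 0.37 without LWT7 and LWT5, 0.19 within runs) and of *Lipg* with the endothelial score (0.60, 0.80 and 0.57 without LKO5 and LKO3) lost the threshold, and that of *Angptl4* with the acute phase passed it in LWT mice (-0.80). Correlations far from the threshold changed sign for *Angptl8* with fatty acid synthesis (-0.11 without LKO4 and LKO3), for *Angptl8* with *Angptl4* (0.00193) and *Angptl4* with the acute phase (0.070) in LKO mice, and for *Lpl* with the macrophage score within runs (-0.17) and with the adipocyte score in LKO mice (-0.14). The order of *Lpl* and *Angptl6* turned without the first run (0.064). Counted at an unadjusted p under 0.05, 1 of the 9 genes passed in the comparison as reported, 4 with the mouse-number run in the model, 3 when the first run was left out, 2 with the replicate block and 2 without LKO4. The cause of these changes was not tested. The depth of the libraries is unknown, so what it limits cannot be given.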
